A study of Homo sapiens with 2 samples.

Results

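MicroRNA host genes are transcription units, most of them long non-coding RNA (lncRNA) genes, that carry microRNA hairpins in their exons or introns and are named MIR followed by the microRNA and HG. The genes described here are all those in GENCODE v29 (GRCh38) with a symbol of that form, apart from MIR34AHG. There were 61 such genes among 57894 genes with a transcript in the tables, and 23 of them had at least 10 estimated reads in at least 2 of the 4 libraries. The other 38 did not reach that level: 26 had no read in any library and 12 had some, with 15 reads the highest in any library. In the second-highest library, the members just inside the rule had 10.0 reads and those just outside it 9.0.

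The libraries were made from total RNA of HEK293 cells, a human embryonic kidney line. They came from the parental cells and from LARP7 knockout clone 1-11, with 2 libraries in each group. LARP7 is the RNA-binding protein that holds and protects the 7SK RNA, the scaffold of the complex that keeps the elongation kinase P-TEFb inactive. The series asked how loss of LARP7 affects RNA levels and splicing. The knockout line is 1 clone, so effects of the knockout and of anything else particular to the clone cannot be told apart. The source name of the knockout sample reads wildtype, whereas its title and genotype field give the knockout, which was used. The labels describe TRIzol extraction, an RNA integrity number of at least 9.0 and the Ovation SoLo kit, and do not say whether both libraries of a genotype stem from different cultures. The p-values below thus reflect only how much these libraries vary, and that variation may be technical.

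A microRNA starts as a hairpin in a longer primary transcript. DROSHA with DGCR8 cuts the hairpin out in the nucleus, XPO5 exports it, DICER1 trims it to a short duplex, and an Argonaute protein keeps 1 strand. The seed, bases 2 to 8 of that mature strand, chooses the target messages by pairing. A hairpin in an intron can leave a spliced host RNA intact, whereas cutting a hairpin in an exon destroys the host RNA that holds it. The level of a host RNA is therefore not the level of its microRNA, and no mature microRNA was measured here.

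By the GENCODE v29 models, all 23 described members hold at least 1 hairpin on their own strand, and together they hold 40. Of these, 21 lie wholly in an exon of at least 1 host transcript, 1 (MIR3150B) overlaps an exon in part, and 18 lie only in introns. MIR17HG holds 6 hairpins, MIRLET7BHG holds 4 and MIR99AHG holds 3, while 13 members hold 1. All 40 hairpin entries of the tables had 0 reads in every library. Each hairpin is shorter than the mean fragment of any library, so these zeros say nothing about the microRNAs. Outside chromosomes 8 and 18 there are 36 of the hairpins, and all 36 matched a mature sequence in RefSeq (GRCh38.p14), giving 60 mature sequences with 49 seeds. The sequences shown are those of the members that the results turn on, and those that tie hosts on different chromosomes together. Each is written 5′ to 3′ with the seed in capitals.

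MIR17HG carries the miR-17-92 cluster, a set of microRNAs known for promoting proliferation, whose members fall into families by seed. The strands miR-17-5p and miR-20a-5p share 1 seed, and miR-19a-3p and miR-19b-3p share another.
hsa-miR-17-5p: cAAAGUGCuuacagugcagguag
hsa-miR-20a-5p: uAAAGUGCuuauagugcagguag
hsa-miR-18a-5p: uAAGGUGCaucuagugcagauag
hsa-miR-19a-3p: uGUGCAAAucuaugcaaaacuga
hsa-miR-19b-3p: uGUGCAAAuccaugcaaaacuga
hsa-miR-92a-3p: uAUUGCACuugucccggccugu

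MIR222HG carries MIR221 and MIR222, whose 3p strands share a seed and are known to target the cell cycle inhibitor CDKN1B. MIR646HG carries MIR646 and MIR4533.
hsa-miR-221-3p: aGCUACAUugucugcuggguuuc
hsa-miR-222-3p: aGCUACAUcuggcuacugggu
hsa-miR-646: aAGCAGCUgccucugaggc
hsa-miR-4533: uGGAAGGAgguugccggacgcu

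Of the 49 seeds, 9 occur in more than 1 mature sequence and 3 in more than 1 host. The let-7 seed is spread over 3 hosts on different chromosomes, MIRLET7BHG, MIR99AHG and MIR4458HG. The seed of the miR-181 5p strands is shared by MIR181A1HG and MIR181A2HG, and so is that of their miR-181b 3p strands. The 29b and 29c 3p strands of MIR29B2CHG share a seed within 1 host.
hsa-let-7a-5p: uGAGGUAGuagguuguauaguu
hsa-let-7b-5p: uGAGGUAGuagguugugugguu
hsa-let-7c-5p: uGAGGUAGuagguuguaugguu
hsa-miR-4458: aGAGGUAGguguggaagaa
hsa-miR-181a-5p: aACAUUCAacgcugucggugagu
hsa-miR-181b-5p: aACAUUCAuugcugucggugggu
hsa-miR-29b-3p: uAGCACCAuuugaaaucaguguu
hsa-miR-29c-3p: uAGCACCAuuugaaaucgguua

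The libraries held 12851942 to 18483220 estimated reads, with parental replicate 2 the shallowest. Over 10040 genes, the median absolute log2 difference was 0.214 between the parental libraries, 0.113 between the knockout libraries and 0.175 to 0.243 across the groups, so the parental libraries differed from each other about as much as from the knockout. Mean fragments were 206.7 and 217.0 bases in the parental and 225.8 and 232.9 bases in the knockout libraries, and the part of fragment length in the results was not tested. Levels are given as CPM, estimated reads put on a common library size with TMM factors. The 7SK RNA was at 5572 and 5481 CPM in the parental and at 169 and 205 CPM in the knockout libraries (adjusted p = 1.13e-06, edgeR). LARP7 RNA was at 59.8 and 46.5 against 36.1 and 31.9 CPM (adjusted p = 0.135, edgeR). The 7 HEK293 genes checked summed to 606 and 585 CPM in the parental and 638 and 637 CPM in the knockout libraries. VIM (396 to 521 CPM), NEFL (82.7 to 97.5), KRT18 (10.2 to 19.1), PAX2 (4.32 to 5.62), KRT8 (1.48 to 2.04) and LHX1 (1.14 to 2.13) were present throughout, whereas NEFM was at 49.4 and 73.6 CPM in the parental and 7.76 and 8.58 CPM in the knockout libraries. The 8 markers of other cells summed to 6.42 and 6.91 CPM in the parental and 8.77 and 8.17 CPM in the knockout libraries. Most of that was COL1A1, a fibroblast collagen, at 5.68 to 7.30 CPM, while PECAM1 and HBB, of endothelium and red cells, were at 0. In bulk RNA, fewer cells with a transcript and less of it per cell cannot be told apart.

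No microRNA host gene passed the main test. The test was edgeR's quasi-likelihood test adjusted over 18484 genes, with calls at an adjusted p under 0.05. Of the 23 described members, 22 could be tested (MIR4435-2HG did not pass the filter on low counts) and 0 were called. Of all tested genes, 0.833% were called. At an unadjusted p under 0.05 there were 3 members, MIR17HG, MIR222HG and MIR646HG, all lower in the knockout, beside 14.3% of all tested genes. Of these, MIR646HG met the read rule through the parental libraries alone. DESeq2 called 2 of the 20 members to which it gave an adjusted p, MIR17HG and MIR222HG, beside 2.75% of all genes, and limma voom called 1, MIR17HG, beside 0.812%.

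The 2 groups did not overlap in 10 of the 22 tested members. The knockout was lower in 5 (MIR17HG, MIR222HG, MIR646HG, MIR4697HG and MIR4458HG), beside 22.7% of all tested genes, and higher in 5 (MIR181A1HG, MIR503HG, MIR2052HG, MIR22HG and MIR194-2HG), beside 23.5%. These shares are near the background. The log2 fold change, knockout minus parental, was above 0 for 10 members and below 0 for 12, with a median of -0.06 beside 0.00 over all tested genes. With library size alone as the scaling, the median over all genes was 0.10. The test had less to work with here than for most genes, since the median mean level of the tested members was 3.03 CPM, against 12.8 CPM over all tested genes.

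**Figure D1:**
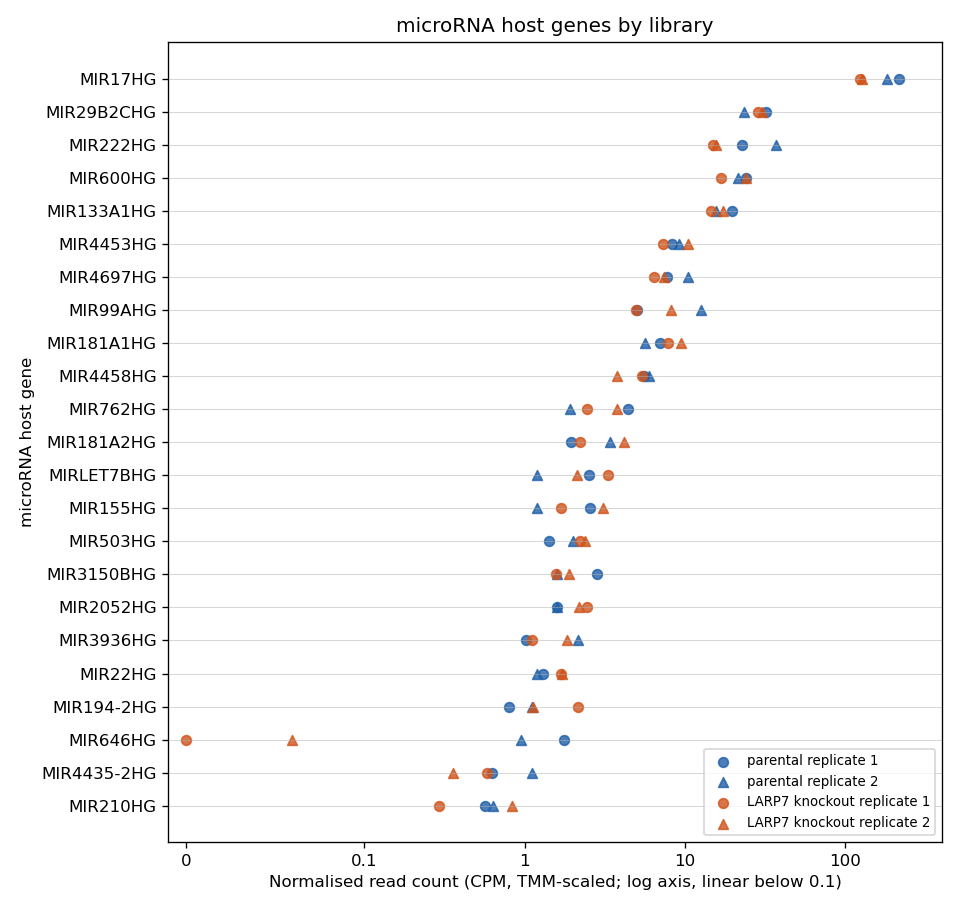
CPM of the 23 described microRNA host genes (rows, ordered by mean) in the 4 libraries, on a log axis that is linear below 0.1. Blue marks parental and orange marks knockout libraries, circles replicate 1 and triangles replicate 2. MIR17HG and MIR222HG are lower in both knockout libraries, MIR646HG is at or near 0 there, and most other rows intermingle.

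Together the described members summed to 371.4 and 342.5 CPM in the parental and to 251.2 and 278.4 CPM in the knockout libraries. MIR17HG alone made up 58.3 and 53.1% of that sum in the parental and 48.9 and 45.5% in the knockout libraries. Without MIR17HG the sums were 154.8 and 160.7 CPM in the parental and 128.5 and 151.7 CPM in the knockout libraries. Both knockout sums were still below both parental ones, though that of knockout replicate 2 only by little. These sums still include MIR222HG, at 22.7 and 36.8 CPM in the parental and 15.0 and 15.6 CPM in the knockout libraries. Its differences are larger than the gap between the sums of parental replicate 1 and knockout replicate 2. The sums therefore do not show that the remaining members were lower in the knockout.

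Per transcript length, MIR17HG was also the most abundant member. Its deposited TPM (a level per length of transcript, scaled to a fixed total) was 91.8 and 59.5 in the parental and 59.4 and 60.0 in the knockout libraries. MIR222HG followed with 9.63 to 15.5 TPM, and MIR181A2HG with 3.09 to 7.87 TPM. From MIR181A2HG downward, the range of every member over the 4 libraries overlapped that of the next in order of mean TPM, so neighbours in that order did not differ beyond their spread. Members far apart in it did not overlap, such as MIR181A2HG and MIR4697HG (1.10 to 1.23 TPM). The lowest mean was that of MIR194-2HG, at 0.165 to 0.539 TPM. The median TPM of tested genes was itself 4.97 and 4.12 in the parental and 6.03 and 5.95 in the knockout libraries. Deposited TPM were thus shifted upward by 0.40 (log2) in the knockout for the median gene, and CPM is used for the comparisons between groups.

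MIR17HG (ENSG00000215417.12, chr13:91347820-91354579, plus strand) was the member with the smallest p. It was at 217 and 182 CPM in parental cells and at 123 and 127 CPM in knockout cells. Both knockout libraries were below both parental ones, and they lay closer to each other than the parental pair did. The log2 fold change was -0.68 (SE 0.13), or 0.626-fold of the parental mean, with an adjusted p of 0.0602 in edgeR. The adjusted p was 0.000999 with DESeq2 and 0.0496 with limma voom, and 0.000499 with edgeR without a filter on low counts, so the call depends on the tool and on the filter. Without either knockout library the edgeR adjusted p was 0.274 and 0.354, and without parental replicate 1 or 2 it was 0.00681 and 8.78e-07. With a parental library left out, the spread comes from the close knockout pair alone and the lone parental library is assumed to vary as little, and the genes called rose from 154 to 2265 and 1825. The same holds for the other members refitted in this way. On log2 TPM the parental replicate 2 value was inside the knockout range, as given above, and limma gave a log2 difference of -0.31 as deposited and -0.71 after centring each library on its median gene (adjusted p = 0.501 and 0.273, limma).

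GENCODE v29 gives MIR17HG 3 transcripts. All 6 hairpins lie within the last exon, which is retained in MIR17HG-203 (2 exons, 2845 bases) and MIR17HG-202 (3 exons, 2032 bases), 2785 to 3571 bases from the gene's start. The 4-exon MIR17HG-201 (931 bases) splices the hairpins out. The hairpin-bearing MIR17HG-203 was at 166.0 and 144.1 CPM in the parental and 99.9 and 101.3 CPM in the knockout libraries, and MIR17HG-201 at 44.4 and 35.8 against 21.3 and 22.7 CPM. Both forms were lower in both knockout libraries. The share of the gene's TPM assigned to MIR17HG-203 was 49.1 and 52.0% in the parental and 54.9 and 53.5% in the knockout libraries. The difference in usage did not pass the test (adjusted p = 1.0, edgeR diffSpliceDGE).

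The 300 bases around RefSeq's start of MIR17HG, chr13:91347437-91347736 on the plus strand of GRCh38.p14, are 73.0% G and C. They are shown because this was the most abundant member and lower in both knockout libraries. The window ends upstream of the GENCODE start, chr13:91347820, from which the hairpin distances above are measured. A search of both strands, counting overlapping matches, covered the GC-box core GGGCGG, the CCAAT box CCAAT, the TATA-like TATAA and the E-box CACGTG, the letters bound by MYC. Capitals mark the matches, which read CCGCCC and ATTGG where they lie on the other strand.
MIR17HG promoter: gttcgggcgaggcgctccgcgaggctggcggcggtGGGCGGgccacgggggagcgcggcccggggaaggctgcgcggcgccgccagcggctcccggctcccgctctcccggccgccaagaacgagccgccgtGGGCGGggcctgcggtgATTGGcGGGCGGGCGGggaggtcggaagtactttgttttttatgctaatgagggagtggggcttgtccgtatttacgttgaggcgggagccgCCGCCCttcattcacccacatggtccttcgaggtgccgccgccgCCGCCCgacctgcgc

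It held 6 GGGCGG, 1 CCAAT, no TATAA and no CACGTG. Among 35116 RefSeq promoters of the same length, 45.0% held GGGCGG, 34.6% CCAAT, 20.4% TATAA and 7.3% CACGTG. No exon of MIR17HG overlaps another gene except its own hairpins. The 2 tested genes within 500 kb had log2 fold changes of -0.12 and -0.07, both nearer 0 than that of MIR17HG, and 0 were called in edgeR.

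MIR222HG (ENSG00000270069.1, chrX:45745211-45770274, minus strand) was at 22.7 and 36.8 CPM in the parental and at 15.0 and 15.6 CPM in the knockout libraries. The knockout libraries were nearly equal and below both parental ones, while the parental libraries differed widely. The log2 fold change was -0.96 (SE 0.24), with an adjusted p of 0.132 in edgeR and 0.159 in limma voom. It was 0.0155 in DESeq2 and 0.000574 with edgeR without a filter on low counts. On log2 TPM limma gave an adjusted p of 0.324 as deposited and 0.333 after centring. Without parental replicate 2, the highest library, the log2 fold change was -0.58, and without parental replicate 1 it was -1.27. Without knockout replicate 1 or 2 the log2 fold change was -0.93 and -0.98. In deposited TPM the groups also did not overlap, with 12.2 and 15.5 against 9.89 and 9.63.

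The MIR222 and MIR221 hairpins lie 23150 and 24008 bases from the start of MIR222HG, inside the intron of MIR222HG-201 and past the end of MIR222HG-202. They are therefore part of the primary transcript but of neither annotated RNA. MIR222HG-201 (2 exons, 1379 bases) held 55.6 and 55.6% of the gene's TPM in the parental and 61.4 and 50.6% in the knockout libraries. The shares overlapped, and usage gave an adjusted p of 1.0 (edgeR diffSpliceDGE). Within the same intron and on the same strand lies the lncRNA gene AC234772.2 (chrX:45764772-45765299), named here after its values were seen. It was at 2.33 and 2.54 CPM in the parental and 0.875 and 1.12 CPM in the knockout libraries, again without overlap (log2 fold change -1.28, SE 0.48, adjusted p = 0.288, edgeR). It was the only tested gene within 500 kb. Whether its reads come from the unspliced MIR222HG transcript was not tested.

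The promoter of MIR222HG, chrX:45770218-45770517 on the minus strand, is 54.7% G and C, and is shown for comparison with that of MIR17HG.
MIR222HG promoter: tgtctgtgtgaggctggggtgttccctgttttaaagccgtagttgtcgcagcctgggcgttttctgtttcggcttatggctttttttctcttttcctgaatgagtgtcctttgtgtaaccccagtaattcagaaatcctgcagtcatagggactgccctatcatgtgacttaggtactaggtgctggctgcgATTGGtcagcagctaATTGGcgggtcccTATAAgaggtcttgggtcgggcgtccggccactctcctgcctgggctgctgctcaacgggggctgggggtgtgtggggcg

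It held 2 CCAAT and 1 TATAA, and no GGGCGG or CACGTG. The promoters share the CCAAT letters, and the matches describe only these letters, not binding.

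**Figure D2:**
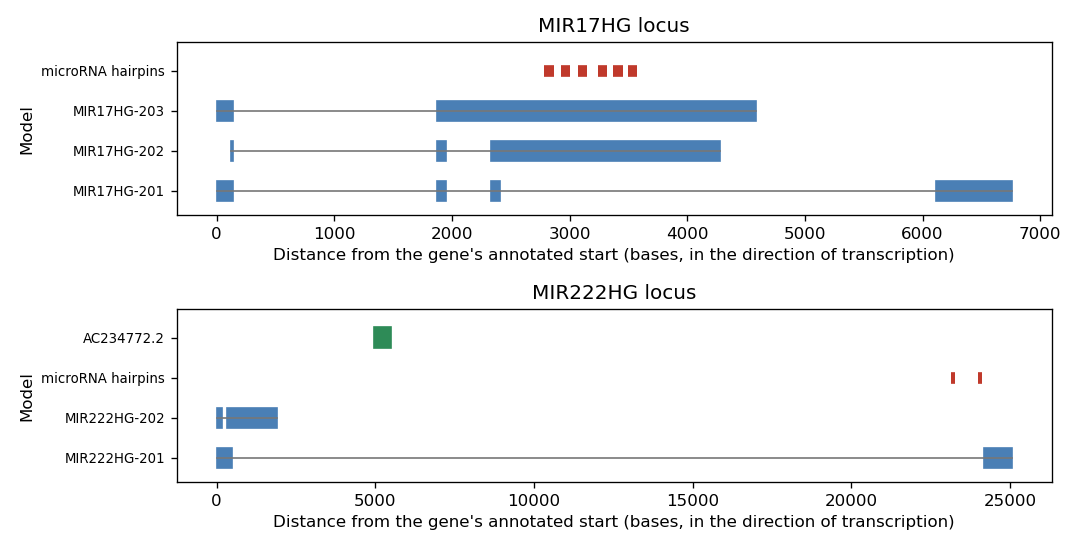
Transcript models (blue exons), microRNA hairpins (red) and the intronic gene AC234772.2 (green) of MIR17HG and MIR222HG, by distance in bases from the gene's annotated start. The 6 hairpins of MIR17HG lie in exons of MIR17HG-202 and MIR17HG-203, and both hairpins of MIR222HG lie in the intron of MIR222HG-201.

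**Figure D3:**
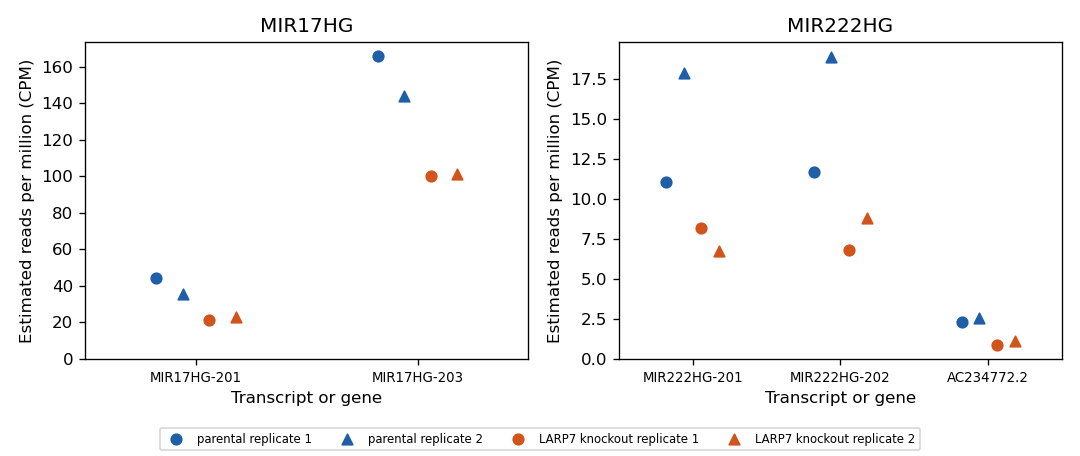
CPM of the main transcripts of MIR17HG and MIR222HG and of AC234772.2 in the 4 libraries (blue parental, orange knockout, circles replicate 1, triangles replicate 2). The knockout libraries lie below the parental ones for every transcript drawn.

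MIR646HG (ENSG00000228340.5, chr20:60087840-60527458, plus strand) spans 439619 bases and had 31 and 12 reads in the parental and 0 and 1 reads in the knockout libraries. That is 1.76 and 0.953 CPM against 0 and 0.0592 CPM, so it was all but absent from the knockout libraries. It met the rule of 10 reads in 2 libraries through the parental libraries alone. From the summed 43 and 1 reads, the knockout level was 0.0206 of the parental level. The exact 95% counting interval of 0.000511 to 0.121 covers counting error only and does not allow for that choice of the gene. The fitted log2 fold change of -5.21 (SE 1.08) depends on the prior count of the fit, and its adjusted p was 0.0753 in edgeR. The gene was not tested under the stricter filter or without parental replicate 1, and DESeq2 gave it no adjusted p. It was called by edgeR with no filter (adjusted p = 0.000713) and without parental replicate 2 (adjusted p = 0.00289). The parental reads fell mostly on MIR646HG-201, MIR646HG-207 and MIR646HG-208. Its exons overlap no other gene. The 5 tested genes within 500 kb had log2 fold changes of 0.16 to 0.85 with a median of 0.55, so they were not lower with it, and 0 were called in edgeR.

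The 3 hosts that carry the let-7 seed had fold changes of different sign. Each was about as large as its SE, so no difference in direction between them is shown. LIN28B, which binds let-7 precursors and blocks their processing, was at 104 to 135 CPM in the 4 libraries. MIRLET7BHG (chr22:46053869-46113928) was at 2.5 and 1.19 CPM in the parental and 3.33 and 2.13 CPM in the knockout libraries. MIR99AHG (chr21:15928296-16645065), which also carries MIR99A and MIR125B2, was at 5.00 and 12.5 against 4.96 and 8.16 CPM. MIR4458HG (chr5:8450743-8463095) was at 5.51 and 5.95 against 5.37 and 3.79 CPM. The groups overlapped for MIRLET7BHG and MIR99AHG and did not for MIR4458HG. The log2 fold changes were 0.54 (SE 0.50), -0.40 (SE 0.44) and -0.32 (SE 0.31), with adjusted p of 0.675, 0.728 and 0.695 in edgeR. The parental libraries of MIR99AHG differed more than the knockout ones, and without parental replicate 2 its log2 fold change was 0.39. Its hairpins are intronic in all 21 of its annotated transcripts, whereas 3 of the 4 hairpins of MIRLET7BHG are exonic in MIRLET7BHG-201. MIR99AHG and MIR155HG lie on chromosome 21, whose 132 tested protein-coding genes had a median log2 fold change of -0.24.

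The miR-181 hosts lie on chromosomes 1 and 9 and carry the same microRNA families. MIR181A1HG (chr1:198807493-198937429) was at 6.99 and 5.64 CPM in the parental and 7.82 and 9.47 CPM in the knockout libraries. MIR181A2HG (chr9:124658467-124698631) was at 1.93 and 3.41 against 2.22 and 4.14 CPM. The groups did not overlap for MIR181A1HG and did for MIR181A2HG. The log2 fold changes were 0.45 (SE 0.27) and 0.26 (SE 0.47), with adjusted p of 0.50 and 0.852 in edgeR. In both, the hairpins are intronic, and MIR181A2HG lies opposite NR6A1.

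MIR29B2CHG (chr1:207801518-207879096) carries MIR29B2 and MIR29C, a family known for repressing collagens and other matrix genes. It was at 31.9 and 23.2 CPM in the parental and 28.6 and 30.2 CPM in the knockout libraries. Both knockout values lay between the parental ones (log2 fold change 0.09, SE 0.19, adjusted p = 0.878, edgeR). MIR29B2CHG-203, a model of 15145 bases and the only one with the hairpins in an exon, held 91.0 and 71.8% of the gene's TPM in the parental and 94.8 and 84.7% in the knockout libraries.

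MIR600HG (chr9:123109494-123115477) was at 23.9 and 21.4 CPM in the parental and 16.7 and 24.1 CPM in the knockout libraries, overlapping (log2 fold change -0.15, SE 0.21, adjusted p = 0.794, edgeR). It lies on the same strand as STRBP and shares exon sequence with it. STRBP was at 101 to 115 CPM, so the division of reads between them is uncertain. The 2 single-exon models of MIR600HG are nearly the same, of 5984 and 5977 bases. Accordingly MIR600HG-202 was given 80.3% of the gene's TPM in parental replicate 1 and 0.001 to 6.7% in the others, which is a difference between parental libraries and not between groups.

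MIR133A1HG (chr18:21825487-21831410) holds MIR133A1 and MIR1-2, known as muscle microRNAs. It was at 19.5 and 15.6 CPM in the parental and 14.6 and 17.3 CPM in the knockout libraries, overlapping (log2 fold change -0.14, SE 0.20, adjusted p = 0.809, edgeR). It lies within the span of MIB1 on the opposite strand. MIB1 was at 262 and 300 against 206 and 210 CPM (adjusted p = 0.163, edgeR). No exon of MIR133A1HG overlaps one of MIB1, and whether unspliced MIB1 RNA adds to its reads was not tested. MYOD1, the muscle marker checked, was at 0 to 0.06 CPM.

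MIR4453HG (chr4:152536264-152539263) was at 8.30 and 9.21 CPM in the parental and 7.30 and 10.4 CPM in the knockout libraries (log2 fold change 0.01). MIR4697HG (chr11:133896438-133901601) was at 7.67 and 10.4 against 6.36 and 7.34 CPM (log2 fold change -0.39). MIR762HG (chr16:30875222-30895220), which overlaps BCL7C on the other strand, was at 4.43 and 1.91 against 2.45 and 3.79 CPM (log2 fold change -0.04). Only MIR4697HG had groups that did not overlap. Their adjusted p were 0.991, 0.561 and 0.982 in edgeR. MIR4453 and MIR4697 lie in the exon of single-exon host models, and MIR762 lies in an intron.

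MIR155HG (chr21:25561909-25575168) is the source of miR-155, known from activated B cells and macrophages. It was at 2.56 and 1.19 CPM in the parental and 1.69 and 3.08 CPM in the knockout libraries, overlapping (log2 fold change 0.32, SE 0.53, adjusted p = 0.835, edgeR). Blood cell markers were near 0, with PTPRC at 0 to 0.47 CPM and CD3E at 0 to 0.24 CPM.

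The other 8 described members were at 0.292 to 2.84 CPM, with 5 to 50 reads in a library. They are MIR503HG, MIR22HG, MIR2052HG, MIR3150BHG, MIR3936HG, MIR194-2HG, MIR210HG and MIR4435-2HG. Among them are the host of the hypoxia-induced miR-210 and the host of miR-192 and miR-194, a pair known from kidney, liver and gut epithelium. The 7 that could be tested had log2 fold changes of -0.37 to 0.79, 4 above 0 and 3 below, with adjusted p of 0.595 to 0.973 in edgeR. MIR2052HG, MIR3150BHG, MIR3936HG and MIR22HG share their span with genes on the opposite strand, as does MIR4435-2HG with BCL2L11. At these counts the SE reached 0.77 for MIR210HG, so changes of modest size were not detectable at this depth.

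**Figure D4:**
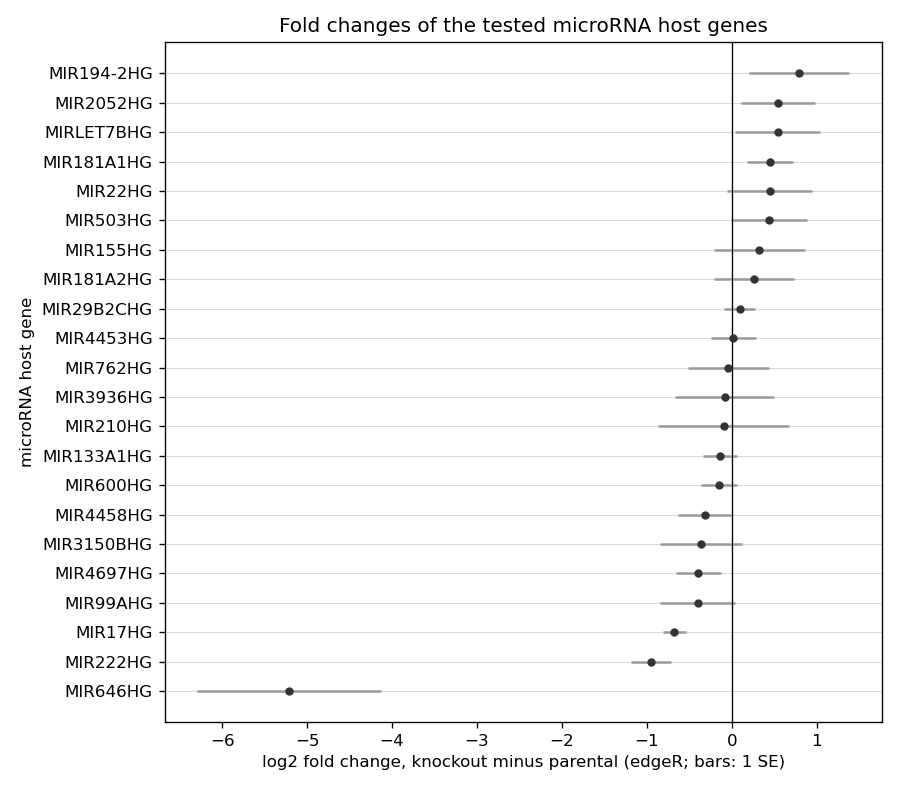
Log2 fold change, knockout minus parental, of the 22 tested members with bars of 1 SE (edgeR). MIR646HG (-5.21), MIR222HG (-0.96) and MIR17HG (-0.68) stand at the low end, and the other 19 lie between -0.40 and 0.79.

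The members with some reads under the rule were MIR9-3HG, MIR193BHG, MIR4500HG, MIR497HG, MIR4713HG, MIR200CHG, MIR217HG, MIR3142HG, MIR1-1HG, MIR202HG, MIR4290HG and MIR3663HG. The highest counts among them were 15 reads for MIR9-3HG, 11 for MIR193BHG and 10.4 for MIR497HG. MIR497HG had 2.20 and 0 reads in the parental and 8.68 and 10.4 reads in the knockout libraries. It thus failed the rule that MIR646HG met through the parental libraries alone. The 26 members without a read in any library were MIR583HG, MIR124-2HG, MIR4422HG, MIR137HG, MIR1302-2HG, MIR205HG, MIR3681HG, MIR7515HG, MIR4432HG, MIR3945HG, MIR31HG, MIR5689HG, MIR548A1HG, MIR381HG, MIR100HG, MIR4307HG, MIR670HG, MIR4300HG, MIR663AHG, MIR7-3HG, MIR122HG, MIR4527HG, MIR2117HG, MIR3976HG, MIR548XHG and MIR325HG. They include hosts named for microRNAs known from neurons (miR-124, miR-137), liver (miR-122) and squamous epithelium (miR-205).

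Transcript usage, the division of a gene's reads among its transcripts, could be tested in 5 members: MIR17HG, MIR222HG, MIR4458HG, MIR600HG and MIR99AHG. It was called in 0 of them by edgeR's diffSpliceDGE with Simes p, where 0.686% of 9475 genes were called. At an unadjusted p under 0.05 there were also 0, and the gene-level F test called 0.

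The factors that process microRNAs and act with them gave 0 calls in edgeR and 0 in DESeq2 among 34 tested of 35. Over all genes the shares called were 0.833% and 2.75%. At an unadjusted p under 0.05 there were 2 factors, beside 14.3% of all tested genes. The median log2 fold change of the factors was 0.02, within a range of -0.30 to 0.29, beside 0.00 over all tested genes. By role, 11 nuclear processing factors had a median of -0.06, 4 dicing factors 0.07 and 11 Argonaute and silencing factors 0.02. DROSHA, the nuclear endonuclease, was at 164 and 154 CPM in the parental and 136 and 145 CPM in the knockout libraries (adjusted p = 0.559, edgeR). The 4 most abundant were DDX17, HNRNPA1, CNOT1 and DDX5. DDX17, an RNA helicase of the DROSHA complex, was at 1660 and 1985 against 1454 and 1552 CPM (log2 fold change -0.28, adjusted p = 0.311, edgeR). HNRNPA1, known to bind the miR-18a hairpin of the MIR17HG cluster, was at 1535 and 1474 against 1635 and 1654 CPM (log2 fold change 0.13, adjusted p = 0.579, edgeR). CNOT1, the scaffold of the deadenylase recruited in silencing, and DDX5, a helicase paralog of DDX17, had log2 fold changes of 0.04 and 0.03. The groups did not overlap for DDX17, HNRNPA1, DROSHA, CNOT1 and some other factors. Among all tested genes this was so in 22.7% with the knockout lower and in 23.5% with it higher.

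Genes that host microRNAs under other names, most of them protein-coding, also gave 0 calls in edgeR among 37 tested of 40. Over all tested genes the share called was 0.833%. At an unadjusted p under 0.05 there were 8, beside 14.3% of all tested genes, and DESeq2 called 1, beside 2.75%. The median log2 fold change was -0.14 (15 above 0, 22 below), beside 0.00 over all tested genes. The call by DESeq2 was SLIT2, the secreted guidance ligand that hosts MIR218-1, named after its values were seen. It was at 194 and 180 CPM in the parental and 304 and 276 CPM in the knockout libraries, without overlap (log2 fold change 0.63, SE 0.12, adjusted p = 0.0532, edgeR). HUWE1, SMC4, PANK3 and IARS2 were the most abundant. HUWE1, a ubiquitin ligase, was at 906 and 922 against 764 and 710 CPM (log2 fold change -0.31, adjusted p = 0.226, edgeR). SMC4, a condensin subunit that hosts MIR15B and MIR16-2, was at 479 and 457 against 564 and 522 CPM (log2 fold change 0.22, adjusted p = 0.419, edgeR). PANK3 and IARS2 had log2 fold changes of 0.12 and -0.03.

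**Figure D5:**
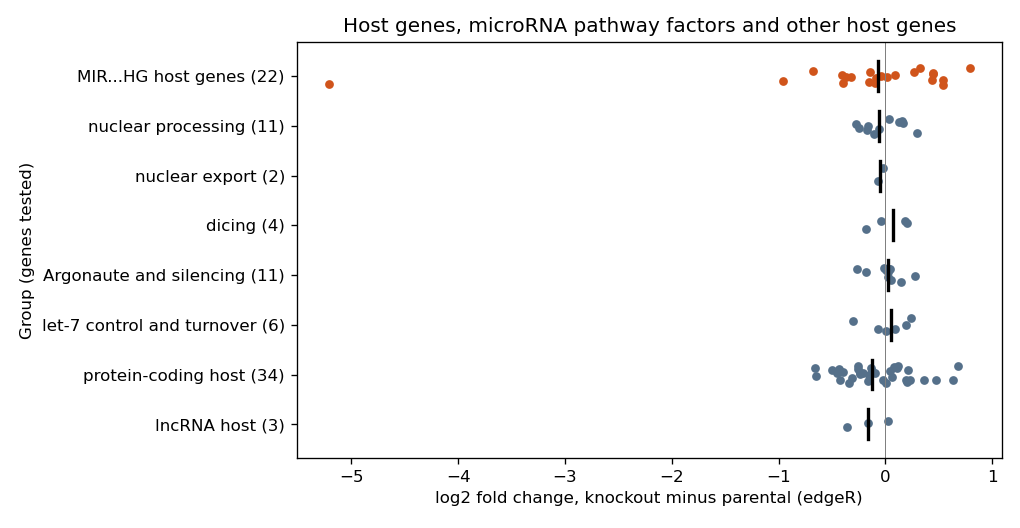
Log2 fold changes (edgeR) of the 22 tested microRNA host genes (orange) beside microRNA pathway factors by role and other host genes (blue), with the number tested in brackets and a black bar at each median. Medians lie between -0.17 and 0.07 in every group, and MIR646HG is the point at -5.21.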

How the data were processed

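Per the file headers, the deposited tables give for each transcript the estimated count (reads assigned by Salmon), TPM and effective length. Per the submitters' processing notes, Salmon 1.6, edgeR 3.24.3, STAR 2.5.3a, cutadapt 1.6, Picard and SAMtools 1.3.1 were used with build hg38. Neither the strand setting nor the annotation release is given in the sources used here. Salmon divides reads among overlapping transcripts, an error that the tests do not see.

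Of 198002 transcripts, 197318 matched GENCODE v29, and the others held 0.063 to 0.071% of reads. Estimated counts were summed per gene, rounded, filtered (filterByExpr), TMM-scaled and tested with edgeR 4.0.16 (quasi-likelihood, 2 libraries against 2, R 4.3.3), with Benjamini-Hochberg adjustment over all 18484 genes. The SE is the absolute log2 fold change over the square root of edgeR's F. Usage was tested with diffSpliceDGE on transcripts with at least 10 reads and 5% of their gene in 2 libraries. The scripts were tested on simulated data. Alternatives were DESeq2 1.42.0, limma 3.58.1 voom, other scalings, filters, a length offset, a replicate block and leaving out each library. Limma on log2(TPM + 0.1) was added after seeing the data. The members and lists were chosen with earlier results of these data known. Full values are given for members with a mean of at least 2 CPM or an unadjusted p under 0.05. From each list, called genes or otherwise the 4 most abundant are named, and DROSHA, LIN28B and SLIT2 were added after their values were seen.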

Additional observations from a re-analysis of the deposited data

How the results depend on the processing

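The count of genes called, 154 with edgeR, was 459 with DESeq2, 831 without a filter, 91 with a length offset, 35 and 11 on log2 TPM as deposited and centred, and 200 to 2265 without 1 library, highest without a parental library. The members called, 0 with edgeR, were 2 with DESeq2, 1 with limma voom, 3 without a filter and 0 to 3 without 1 library (2 and 3 without parental replicate 1 and 2). Pathway factors called were 0, and 0 to 4 without 1 library. Other hosts called were 0, but 1 with DESeq2, limma voom, library size alone or no filter, and 0 to 8 without 1 library. Usage, 65 genes, was called in 122 by the F test, 133 without a share minimum and 0 to 92 without 1 library, and in 0 members throughout. With the replicate number as a block, 1 of 34 pathway factors, 8 of 37 other hosts and 0 usage genes were called. The block also called 1656 of 18484 genes and 3 of 22 members. The members were MIR17HG, MIR222HG and MIR646HG (adjusted p = 2.54e-05, 6.67e-05 and 0.00137, edgeR). The deviations of same-numbered libraries from their group means correlated at 0.133 over 18484 genes, from 2 pairs. The labels tie no number to a shared culture or day, and whether the numbers pair the libraries was not tested further. The rule gave 27 members at 5 reads and 19 at 20.

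Of 305 refits of the 22 members, 253 kept direction and side, 14 passed the threshold (MIR17HG, MIR222HG and MIR646HG) and 38 changed sign, none of them called. The refits counted as keeping side include those of MIR646HG and MIR210HG by DESeq2, which had no adjusted p. For these only the direction was compared. The sign held throughout in 9 members. Sign changes were 0.632 for MIR3150BHG, -0.044 for MIR29B2CHG and 0.023 for MIR3936HG with the length offset. With limma voom they were 0.017 for MIR3936HG and -0.000293 for MIR4453HG, and with library size alone 0.00488 and 0.0599 for MIR3936HG and MIR762HG. With the block they were -0.00759 for MIR4453HG and 0.018 for MIR762HG. On deposited log2 TPM they were 0.323 for MIR133A1HG, 0.982 for MIR3150BHG, 0.432 for MIR3936HG, 0.391 for MIR4458HG, 0.0207 for MIR4697HG, 0.225 for MIR600HG, 0.483 for MIR762HG and 0.0594 for MIR99AHG. On centred log2 TPM they were -0.0423 for MIR29B2CHG, 0.585 for MIR3150BHG, 0.0346 for MIR3936HG, -0.00872 for MIR4453HG and 0.086 for MIR762HG. Leaving out 1 library gave ranges of -0.296 to 0.0328 for MIR133A1HG, -0.159 to 0.992 for MIR155HG, -0.252 to 0.713 for MIR181A2HG, -1.02 to 0.462 for MIR210HG, -0.121 to 0.338 for MIR29B2CHG, -0.713 to 0.123 for MIR3150BHG, -0.545 to 0.518 for MIR3936HG, -0.256 to 0.246 for MIR4453HG, -0.437 to 0.0894 for MIR600HG, -0.51 to 0.704 for MIR762HG and -0.938 to 0.388 for MIR99AHG. The cause was not tested.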
